A study of Homo sapiens with 4 samples.

Results

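The gastrointestinal lineage transcription factors described here are CDX1, CDX2, FOXA1, FOXA2, FOXA3, GATA4, GATA6 and KLF5, taken by gene name as 8 rows of the 58336 in a deposited table of gene counts. RNA was sequenced from AGS and HGC-27, established human gastric cancer cell lines labelled wild type. AGS was derived from a gastric adenocarcinoma and has epithelial morphology, and HGC-27 came from an undifferentiated carcinoma of the stomach. Each line was given 10 nM estradiol, the main oestrogen, for 1 day, or was kept as a control. This made 4 libraries, 1 for each combination of line and treatment. The comparisons asked how far the factors differed between AGS and HGC-27 (2 libraries each, 1 with and 1 without estradiol) and whether estradiol changed them relative to control. It is not stated whether the libraries are separate experiments, and the p-values reach no further than the libraries themselves. The variance behind them is mostly shared across genes, so they say little about the spread of a single gene. Each line is a single model of its kind.

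These factors specify and maintain the lining of the gut. GATA4, GATA6 and the FOXA proteins act from the first endoderm onward, and FOXA proteins, called pioneer factors, can bind DNA that is still packed in nucleosomes. CDX1 and CDX2 are homeobox factors of the intestine; they are normally silent in the adult stomach and appear there in intestinal metaplasia. KLF5, a zinc finger factor, is active in dividing epithelial cells of the gut.

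Deposited counts summed to between 24597379 and 28734374 per library, and 3 counts corresponded to 0.104 to 0.12 CPM (counts relative to library size, with sizes scaled by the TMM method). Of 10 epithelial markers, 9 passed the filter on low counts, 2 of them through AGS alone, and these 9 were higher in AGS; their summed level over all 10 was 6589 CPM with estradiol and 6259 CPM in control AGS cells, against 77.6 CPM with estradiol and 73.1 CPM in control HGC-27 cells. EPCAM, an epithelial surface antigen, averaged 509 CPM in AGS and 0.333 CPM in HGC-27. Mesenchymal markers (8 genes, led by VIM, SPARC and TWIST1) summed to 5.57 and 5.04 CPM in AGS, against 2142 and 2121 CPM in HGC-27, each with estradiol and in control. Fibroblast markers (7 genes, led by COL3A1, COL1A1 and LUM) summed to 34.4 and 32.4 CPM in AGS, against 4512 and 4318 CPM in HGC-27. SPARC, TWIST1, ZEB2, COL1A2, DCN and LUM had 0 counts in AGS. Endothelial markers (6 genes, led by VWF, CLDN5 and PECAM1) summed to at most 1.14 CPM in any library, and leukocyte markers (7 genes, among them LCP1 and PTPRC) to at most 5.44 CPM. The part of these differences in the results on the lineage factors was not tested.

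Of the 8 factors, 7 were expressed in AGS, and each of these 7 was lower in HGC-27, by a fitted 5.82-fold (FOXA2) to 22.4-fold (CDX2) for 6 of them and by more for FOXA3, while CDX1 had no count in either line. CDX1 (ENSG00000113722, chromosome 5, 150166795 to 150184558) had 0 counts in all 4 libraries, which allows a level of up to 0.12 CPM. The other 7 passed the filter, FOXA3 through its AGS libraries alone. With edgeR's quasi-likelihood test, all 7 tested factors were higher in AGS than in HGC-27, with a largest adjusted p of 1.23e-15 (FOXA2). For FOXA3 the filter fixed that direction. The other 6 reached the filter's level in both lines, and all 6 were higher. Of all 14387 such genes, 5376 were called higher in AGS. The lines differ widely: of 18278 genes tested, 35.7% were called higher in AGS, 41.5% lower and 77.2% in either direction. The median log2 difference of the 7, FOXA3 included, was 3.54, against -0.10 over all genes tested. In bulk RNA, fewer cells that make a transcript and less of it in each cell cannot be told apart.

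CDX2 (ENSG00000165556, chromosome 13, 27962137 to 27971139), which can turn on intestinal genes, had 2364 counts with estradiol and 2430 in control AGS cells, against 102 with estradiol and 113 in control HGC-27 cells. As CPM these were 85.5 and 93.5 in AGS and 4.08 and 3.91 in HGC-27. The AGS pair stood far above the HGC-27 pair, and the gap was many times the difference within either line. The fitted log2 difference was 4.49 ± 0.10 (SE, n = 2 libraries per line), a 22.4-fold difference, which among the 7 tested factors was exceeded by FOXA3 alone. CDX2 was the sole CDX gene with counts, since CDX4 also had 0 counts in every library.

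Of the RefSeq promoter windows (GRCh38.p14, from 250 bases before to 50 bases after the start), 5 of the 8 factors had 1 or more. The CDX2 window is shown because it alone among these held letters of each of 3 factor families described here. All searches were made on both strands. For GATA factors the letters searched were AGATAA, or the variant with another first base, TGATAA. For the forkhead (FOXA) family they were TGTTTAC, or the variant with another second base, TATTTAC. For CDX factors they were TTTATG, or the variant with another last base, TTTATT. The CDX2 window had 1 match of each kind. Matches were found in 16.3% of all 35116 windows for GATA, 5.97% for forkhead and 24.3% for CDX, and 0.866% held all 3. The stretches below are on the minus strand of chromosome 13, with the match in capitals as its reverse complement; GENCODE counts them as exon of a longer CDX2 transcript. They lie at chr13:27969480-27969505, chr13:27969419-27969444 and chr13:27969316-27969338.
CDX match, -190 to -165 from the start: agctcttaacAATAAAggtttgaata
GATA match, -129 to -104 from the start: tccctcccctTTATCTtttaaaatgc
forkhead match, -23 to -1 from the start: atagagtcttGTAAACActcgtt
These matches are letters in a window, and no binding was measured.

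FOXA1 (ENSG00000129514, chromosome 14, 37589984 to 37596059), a pioneer factor of endoderm and of several glands, had 2005 counts (72.5 CPM) with estradiol and 1850 (71.2 CPM) in control AGS cells. In HGC-27 it had 121 counts (4.84 CPM) with estradiol and 147 (5.08 CPM) in control cells. The lines did not overlap, and the log2 difference was 3.85 ± 0.10 (14.5-fold). FOXA1 shares 16 exonic bases with TTC6 on the opposite strand, 0.402% of its exons, and TTC6 had 97 and 98 counts in AGS.

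The bases before the FOXA1 start that lie in none of its annotated exons are shown beside those before the first KLF5 start, as examples of a CpG-rich and a CpG-poor promoter among these factors. Capitals mark the GC box letters GGGCGG in FOXA1 (minus strand, chr14:37595349-37595499, 151 bases) and the TATA box letters TATAAA in KLF5 (plus strand, chr13:73054726-73054975, 250 bases). The KLF5 match lies nearer the far end of the stretch than the start. Both are matches of letters, and no promoter activity was measured.
FOXA1: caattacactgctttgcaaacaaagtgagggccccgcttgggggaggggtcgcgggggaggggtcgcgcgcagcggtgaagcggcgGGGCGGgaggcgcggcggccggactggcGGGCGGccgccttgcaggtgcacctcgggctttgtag
KLF5: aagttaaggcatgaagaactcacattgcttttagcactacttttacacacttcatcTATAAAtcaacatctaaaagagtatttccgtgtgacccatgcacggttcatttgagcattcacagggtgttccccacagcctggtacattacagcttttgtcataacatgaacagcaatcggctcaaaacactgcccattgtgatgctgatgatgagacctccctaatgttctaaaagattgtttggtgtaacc
GC made up 72.2% of the FOXA1 stretch and 40.8% of the KLF5 stretch. The ratio of CpG found to CpG expected from base content was 0.996 for FOXA1 and 0.294 for KLF5. The letters GGGCGG were found on either strand in 45.0% of all windows and TATAAA in 11.5%. Those windows are longer than the stretches shown, so the shares are not for an equal length. A second KLF5 start, whose window (chr13:73058755-73059054) is 71.3% GC, held no match to TATAAA and 2 to GGGCGG. The counts are per gene and do not tell the KLF5 starts apart.

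FOXA2 (ENSG00000125798, chromosome 20, 22581005 to 22585455), needed for foregut and node formation in the mouse embryo, was the least abundant factor with counts in AGS. It had 134 counts (4.85 CPM) with estradiol and 170 (6.54 CPM) in control AGS cells, against 31 (1.24 CPM) with estradiol and 21 (0.726 CPM) in control HGC-27 cells. The log2 difference was 2.54 ± 0.30 (5.82-fold). The lines did not overlap, but the libraries within a line differed more for FOXA2 than for the more abundant factors.

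FOXA3 (ENSG00000170608, chromosome 19, 45863989 to 45873797), the FOXA factor best known from liver, gut and goblet cells, separated the lines most. It had 929 counts (33.6 CPM) with estradiol and 1027 (39.5 CPM) in control AGS cells, against 0 counts with estradiol and 1 count in control HGC-27 cells. Over the libraries of a line, AGS exceeded HGC-27 by 1967-fold, with a 95% counting interval of 353 to 77720. The fitted log2 difference of 10.63 ± 0.30 depends on the prior count. It was 12.90 without the HGC-27 control library, the sole one of that line with a FOXA3 read, and 9.86 without the HGC-27 estradiol library. The FOXA3 level in HGC-27 was 0.0473% of that in AGS, while that of FOXA1 was 6.90% and that of FOXA2 17.3%.

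GATA4 (ENSG00000136574, chromosome 8, 11676959 to 11760002), a zinc finger factor of heart, stomach and proximal intestine, had 3979 counts (144 CPM) with estradiol and 3801 (146 CPM) in control AGS cells. In HGC-27 it had 339 counts (13.6 CPM) with estradiol and 334 (11.5 CPM) in control cells. The log2 difference was 3.54 ± 0.08 (11.6-fold), with no overlap between the lines.

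GATA6 (ENSG00000141448, chromosome 18, 22169443 to 22202528), the GATA factor found along the whole gut lining, had 1957 counts (70.8 CPM) with estradiol and 1947 (74.9 CPM) in control AGS cells, against 300 (12.0 CPM) with estradiol and 375 (13.0 CPM) in control HGC-27 cells. The log2 difference was 2.54 ± 0.09 (5.83-fold). GATA6 overlaps antisense genes in its exons: it shares 240 exonic bases with GATA6-AS1 and 321 with AC091588.3, which are 6.08% and 8.14% of its exons. The sources used here do not state strandedness, and reads in these bases cannot be assigned to a strand. For GATA6-AS1 the AGS libraries held 144 counts with estradiol and 116 in control, and the HGC-27 libraries 22 with estradiol and 7 in control.

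KLF5 (ENSG00000102554, chromosome 13, 73054976 to 73077542) was the most abundant factor in both lines. It had 15300 counts (554 CPM) with estradiol and 14402 (554 CPM) in control AGS cells, against 2149 (86.0 CPM) with estradiol and 2566 (88.7 CPM) in control HGC-27 cells. The log2 difference was 2.66 ± 0.06 (6.34-fold). By TPM it ranked 171 among all genes in both AGS libraries, against 1921 with estradiol and 1899 in control HGC-27 cells. KLF5 thus differed clearly between the lines and was well expressed in both.

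**Figure D1:**
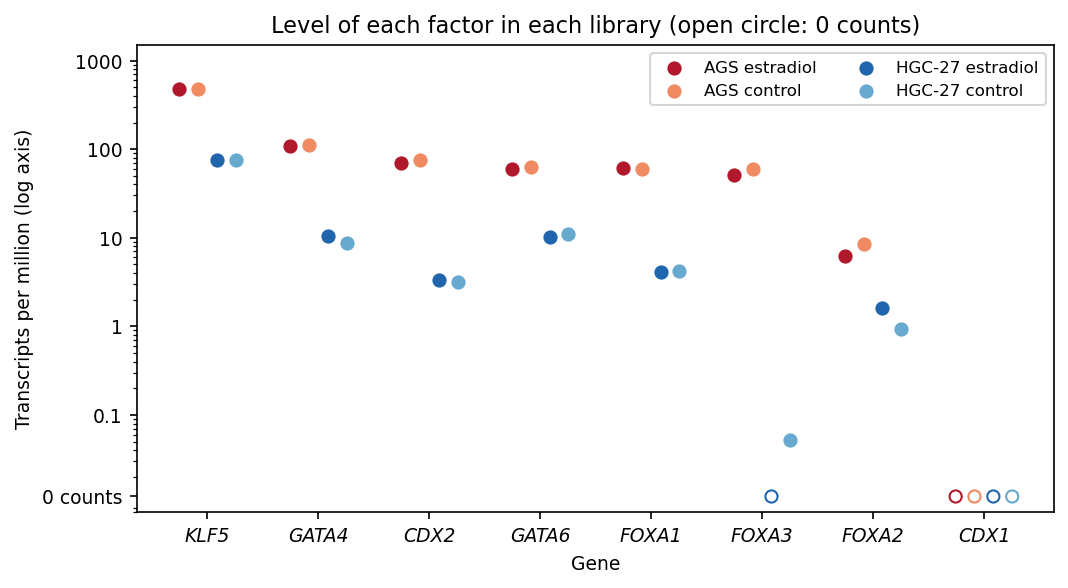
Level of each factor in each library, in TPM on a log axis, with AGS in red tones and HGC-27 in blue tones; open circles mark 0 counts. The AGS points lie above the HGC-27 points for the 7 factors with counts, KLF5 is highest in both lines, and FOXA3 in HGC-27 rests on 1 read.

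To compare levels between genes, counts were divided by the exonic length in the deposited table and scaled to TPM, a length-corrected level that sums to the same total in every library. In AGS the order of mean TPM was KLF5 (476), GATA4 (109), CDX2 (72.7), GATA6 (61.8), FOXA1 (60.4), FOXA3 (55.8), FOXA2 (7.32) and CDX1 (0). Neighbours in that order were separated beyond the values of both libraries and their 95% counting intervals, except GATA6 from FOXA1 and FOXA1 from FOXA3. In HGC-27 the order was KLF5 (75.5), GATA6 (10.6), GATA4 (9.52), FOXA1 (4.19), CDX2 (3.26), FOXA2 (1.27), FOXA3 (0.0264) and CDX1 (0). There, GATA6 and GATA4, FOXA1 and CDX2, and FOXA3 and CDX1 did not differ beyond that spread. The second place therefore belonged to GATA4 in AGS and was shared by GATA6 and GATA4 in HGC-27.

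By size of the log2 difference between the lines, FOXA3 came first, followed by CDX2, FOXA1, GATA4, KLF5, GATA6 and FOXA2. KLF5 exceeded GATA6 by 0.12 ± 0.10 (SE of the gap), and GATA6 exceeded FOXA2 by 0.0031 ± 0.31, so these 3 were not separated. GATA4 exceeded KLF5 by 0.87 ± 0.09. The HGC-27 level as a share of the AGS level was 17.3% for FOXA2, 17.1% for GATA6, 15.8% for KLF5, 8.65% for GATA4, 6.90% for FOXA1, 4.46% for CDX2 and 0.0473% for FOXA3. Over the 9 tested epithelial markers that share ran from 0.00892% for KRT19 to 18.6% for CDH1, which lay above all 7 factors, and the next highest was 1.94% for KRT8.

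Each factor was then set among the other genes of its family. In the FOXA family, FOXA1 made up 51.4% of the summed TPM with estradiol and 46.5% in control AGS cells, and FOXA3 43.3% and 46.9%. In HGC-27 cells, FOXA1 held 71.8% with estradiol and 81.2% in control, and FOXA2 held 28.2% and 17.8%, on few reads. In the GATA family, GATA4 held 61.2% with estradiol and 59.5% in control AGS cells and GATA6 33.9% and 34.3%, with GATA5 next. In HGC-27 cells the leading member was GATA2, a factor of blood and endothelial cells, with 54.5% with estradiol and 58.5% in control. GATA2 had 1 count in each AGS library against 861 with estradiol and 1158 in control HGC-27 cells. HGC-27 thus exceeded AGS in GATA2 by 1004-fold, with a 95% counting interval of 278 to 8296. The summed GATA level was 177 TPM with estradiol and 185 TPM in control AGS cells, against 48.0 and 51.4 TPM in HGC-27. KLF5 was first of 17 KLF genes in every library, with 57.2% and 58.3% of the summed TPM in AGS against 22.1% and 23.3% in HGC-27.

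**Figure D2:**
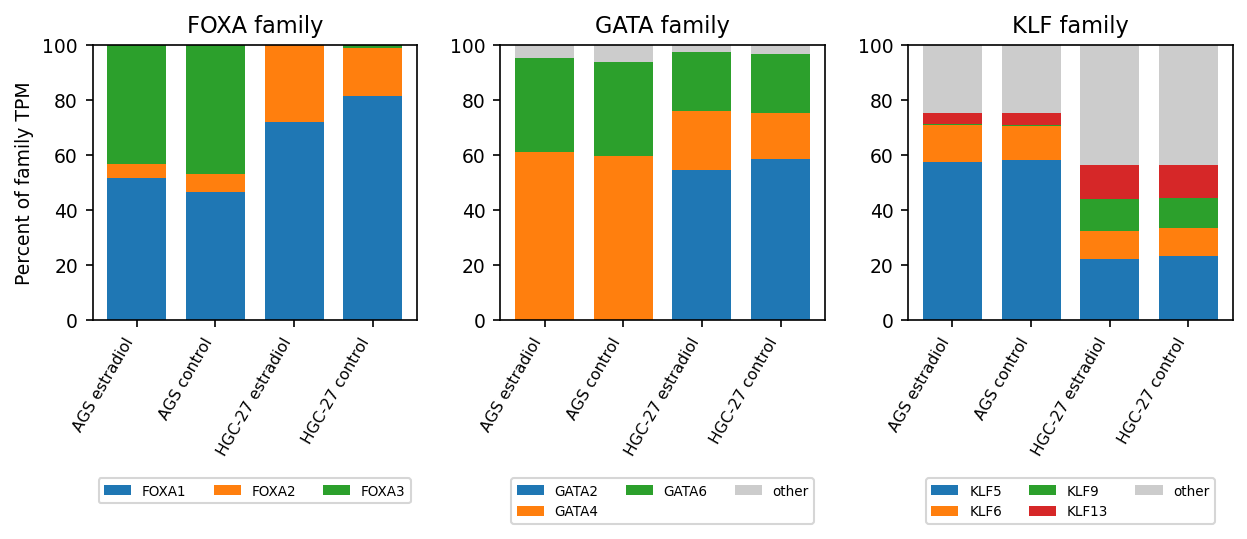
Share of each FOXA, GATA and KLF gene in the summed TPM of its family (percent), per library, with AGS left of HGC-27; genes that never reach 10% are joined as other. FOXA3 is at most 1.00% in HGC-27, GATA2 leads the GATA family in HGC-27, and KLF5 holds 57.2% and 58.3% of the KLF total in AGS.

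Among 22 relatives and cofactors of the 8 factors, a list of the other GATA and CDX genes, the other KLF genes except KLF4, and the GATA partners ZFPM1 and ZFPM2, 15 were tested, 6 were higher in AGS and 9 lower. Their median log2 difference was -0.24. Over all genes tested, 35.7% were called higher in AGS and 41.5% lower. Of the 15, 1 passed the filter through AGS alone and 3 through HGC-27 alone, which fixed their direction. Among the other 11, 5 were higher in AGS. KLF4, which is counted with the gut transcription factors, was also higher in AGS, by 2.60 ± 0.11. GATA5, a further gut GATA factor, was counted 187 times with estradiol and 229 times in control AGS cells and never in HGC-27, so it was at least 69.6-fold higher in AGS, against a floor of 3 counts per library. ZFPM1 was higher in AGS by 2.33 ± 0.17 and KLF6 by 1.66 ± 0.06. KLF9 was lower in AGS by a log2 difference of -3.06 ± 0.10. In AGS, ZFPM2 was counted 3 times with estradiol and 0 times in control, against 1182 with estradiol and 1328 in control for HGC-27, which exceeded AGS by 832-fold (95% counting interval 284 to 4038). The fitted log2 difference of ZFPM2 was -9.59, and it was -13.27 without the AGS estradiol library, the sole AGS library with a ZFPM2 read, and -8.67 without the AGS control library. The relatives thus went in both directions.

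Other transcription factors of stomach and intestine were mostly higher in AGS: of 27 listed, 20 were tested, 16 were higher and 4 lower. Of these 20, 10 passed the filter through AGS alone and 2 through HGC-27 alone, which fixed their direction. Among the 8 that reached the filter's level in both lines, 6 were higher in AGS. The median log2 difference of the 20 was 6.82, or 4.09 with genes at 0 in a line set at the floor. FOXQ1, a forkhead factor of stomach surface cells, was counted 8409 times with estradiol and 6892 times in control AGS cells and never in HGC-27 (at least 2545-fold higher in AGS). SOX2, a factor of the stomach and oesophagus, reached 542 counts with estradiol and 504 in control AGS cells, with none in HGC-27 (at least 174-fold higher). In the other direction, HHEX, a factor of foregut and blood vessel precursors, was at least 96.3-fold lower in AGS, and ONECUT2 had a log2 difference of -1.83 ± 0.10. The AGS libraries thus held SOX2 and CDX2 reads together, and bulk RNA does not tell whether the same cells made both.

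Differentiation genes of the gut were compared next. Of 35 intestinal genes, 18 were tested, 16 were higher in AGS, 1 was lower (FCGBP) and 1 was not called; the median was 7.58, or 7.14 with the floor. These values are set largely by the filter, which 13 of the 18 passed through AGS alone and 1 through HGC-27 alone. Of the other 4, 3 were higher in AGS. The FCGBP call (log2 difference -2.43 ± 0.81) was lost without the AGS estradiol library (-1.64, adjusted p = 0.0766 in edgeR; -3.90 and called without the AGS control library), without the HGC-27 estradiol library (adjusted p = 0.0523) and without the HGC-27 control library (adjusted p = 0.0671). The surface protein TSPAN8 reached 5377 counts with estradiol and 5500 in control AGS cells, the lectin REG4 3064 and 3119, and the microvillus protein EPS8L3 1935 and 1690, all with none in HGC-27 (at least 1815-fold, 1032-fold and 604-fold higher). The smallest called differences at a mean of 1 CPM or more were those of CDHR5 (2.97 ± 0.15), MUC17 (3.06 ± 0.44) and TM4SF5 (5.77 ± 0.54). TM4SF5 was at 9.79 without the HGC-27 control library, which held all 4 HGC-27 reads of the gene, and at 4.88 without the HGC-27 estradiol library. Singled out after their values were seen, the listed intestinal genes SI, FABP1, GUCY2C and TFF3 had at most 5 counts in any library. Of 24 gastric genes, 10 were tested, 7 were higher, 1 lower (CLDN18) and 2 not called, with a median of 5.85, or 3.11 with the floor. Of these 10, 6 passed the filter through AGS alone, and 1 of the other 4 was higher in AGS. CLDN18 had 4 counts with estradiol and 10 in control AGS cells, against 38 with estradiol and 35 in control HGC-27 cells. Its log2 difference was -2.37 ± 0.59, and -3.18 without the AGS control library, which held most of its AGS reads. The protease CTSE reached 26439 counts with estradiol and 25666 in control AGS cells, with none in HGC-27 (at least 8690-fold higher), CAPN8 was at least 325-fold higher and the mucosal peptide TFF1 at least 184-fold. The mucin MUC1 was higher by 3.14 ± 0.08. Of 18 genes listed as FOXA targets, most of them liver genes, 5 were tested. All 5 passed the filter through AGS alone, so that their being called higher in AGS was fixed by the filter: FGB, FGA and FGG, which encode fibrinogen chains, the apolipoprotein APOA2 (5.39 ± 0.32) and SERPINA1 (2.65 ± 0.71). FGB and FGA were at least 138-fold and 42.1-fold higher, and FGG 297-fold (95% counting interval 52.8 to 11755), on 1 HGC-27 read in the estradiol library. The fitted log2 difference of FGG was 7.91, and it was 10.25 without that library and 6.94 without the HGC-27 control library. Albumin (ALB), transthyretin (TTR) and APOB had at most 2 counts in any library.

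**Figure D3:**
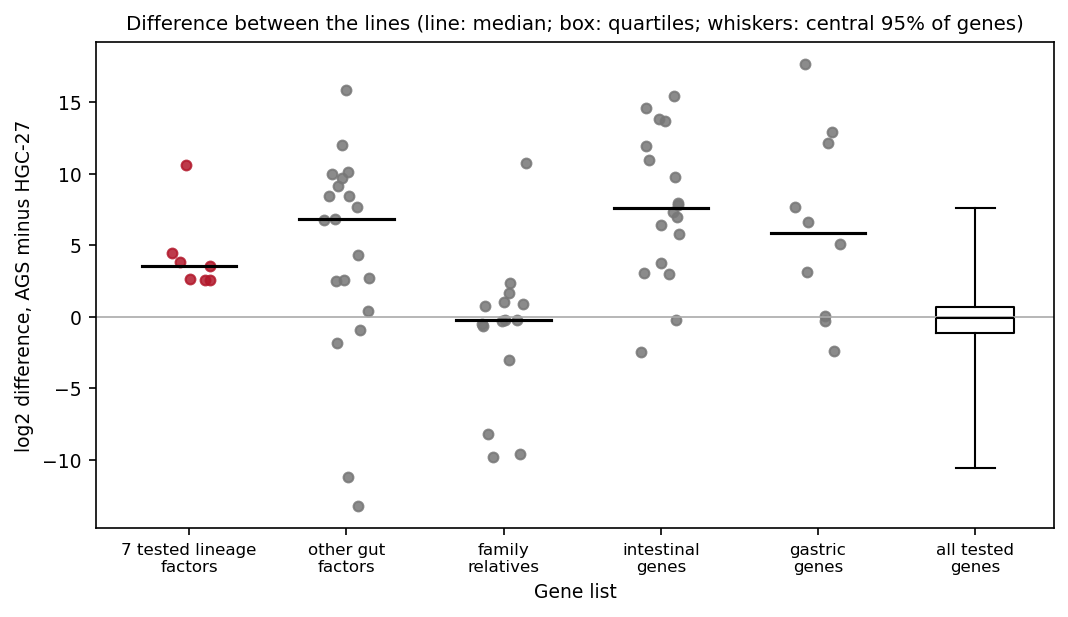
Fitted log2 difference of AGS minus HGC-27 for the tested genes of each list, with the median as a line, beside a box of all tested genes (quartiles, whiskers over the central 95%). The 7 lineage factors lie between 2.54 and 10.63, the family relatives spread to both sides of 0, and most gut genes lie above 0, many of them tested only because of their AGS counts; values of genes at 0 in a line depend on the prior count.

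The listed gut gene nearest to each factor over the 4 libraries was found by the Euclidean distance of log2(CPM + 1), among 86 genes. FOXA3 was nearest to CAPN8 (distance 0.122). GATA4 was nearest to MUC1 (0.389), as were GATA6 (1.12) and, at a distance, KLF5 (4.74), which had no gene of like level in the list. FOXA2 was nearest to NR5A2 (0.686) and PROX1 (0.976). CDX2 and FOXA1 were nearest to KLF4 (1.86 and 1.31). The 4 points of each profile come from 2 lines, so the distance describes the level in each line.

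Estradiol changed none of the 7 tested factors past the threshold. In the model with the line as a block, 0 of 7 were called (edgeR, adjusted p = 1.00 for each), 0 had an unadjusted p under 0.05, and DESeq2 also called 0. Of all genes tested, 0.153% were called, 0.115% higher and 0.0383% lower. The log2 change over both lines was -0.10 ± 0.09 (SE) for CDX2, 0.0058 ± 0.09 for FOXA1, -0.08 ± 0.29 for FOXA2 and -0.24 ± 0.14 for FOXA3. It was 0.05 ± 0.07 for GATA4, -0.09 ± 0.08 for GATA6 and -0.02 ± 0.05 for KLF5. The FOXA3 value rests almost wholly on AGS, since HGC-27 held 0 counts with estradiol and 1 in control. The SE was largest for FOXA2, the factor with the fewest counts in AGS, and smallest for KLF5.

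Within AGS, where there was 1 library per treatment and no test, the log2 ratio of estradiol over control had a 95% counting interval below 0 for 3 of 7 factors and above 0 for 0. Over all tested genes with counts in AGS these shares were 12.6% and 11.8%. The 3 were FOXA2 (-0.43, interval -0.77 to -0.10), FOXA3 (-0.23, -0.36 to -0.10) and CDX2 (-0.13, -0.21 to -0.05). FOXA1 stood at 0.03 (-0.06 to 0.12), GATA4 at -0.02 (-0.09 to 0.04), GATA6 at -0.08 (-0.17 to 0.01) and KLF5 at -0.0016 (-0.03 to 0.03). Within HGC-27 the interval was above 0 for GATA4 alone (0.23, 0.01 to 0.45) and below 0 for none, against 9.73% and 10.8% of all tested genes with counts there. There, CDX2 stood at 0.06 (-0.34 to 0.46), FOXA1 at -0.07 (-0.43 to 0.29), GATA6 at -0.11 (-0.33 to 0.11) and KLF5 at -0.04 (-0.13 to 0.04). FOXA2 had a ratio of 0.76 in HGC-27 (-0.07 to 1.65), opposite in sign to AGS, and FOXA3 gave no usable ratio. These intervals cover counting error only, and the difference between the lines could not be tested.

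**Figure D4:**
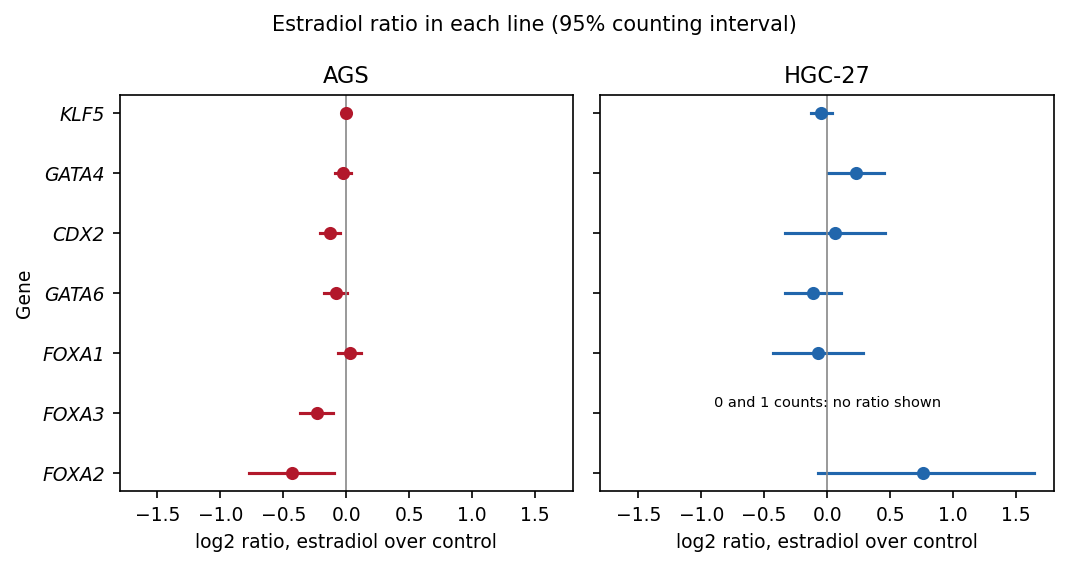
log2 ratio of estradiol over control for each tested factor, in AGS (left) and HGC-27 (right), with 95% counting intervals. FOXA2, FOXA3 and CDX2 lie below 0 in AGS, GATA4 lies above 0 in HGC-27, and KLF5 has the narrowest interval in both lines.

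Gut genes outside the 8 factors were described in the same way with estradiol. None of the other gut transcription factors, family relatives, intestinal or gastric genes was called. FGB fell by 1.01 on the log2 scale (SE 0.22, adjusted p = 0.00747 in edgeR). It had 284 counts with estradiol and 538 in control AGS cells and 0 in HGC-27. The call therefore rests on 1 AGS library per treatment, with no replicate of the change. The FGB call was lost in DESeq2 (-0.47, adjusted p = 1.00), with a filter of at least 1 CPM in 2 libraries (adjusted p = 0.132), with libraries scaled by total counts (adjusted p = 0.0772) and with no replicate block (adjusted p = 1.00). In AGS, where the counting interval lay below 0 for 12.6% and above 0 for 11.8% of all tested genes with counts, it lay below 0 for 6 of 18 intestinal genes and above 0 for 3. Among these, LGALS4 stood at -0.37 (-0.52 to -0.21) and the microvillus protein VIL1 at 0.13 (0.08 to 0.17). For the other gut transcription factors it lay below 0 for 3 of 18, among them HNF4A at -0.15 (-0.23 to -0.08), and above 0 for 3, among them FOXQ1 at 0.20 (0.15 to 0.24). Among gastric genes it lay below 0 for 2 of 10 and above 0 for 1, and among family relatives below 0 for 2 of 14 and above 0 for 1. Among the FOXA targets it lay below 0 for 3 of 5 and above 0 for none. Beside FGB, these were FGA at -0.56 (-0.94 to -0.19) and FGG at -0.47 (-0.82 to -0.13). All 3 encode fibrinogen chains, so they are not 3 unrelated genes. For APOA2 and SERPINA1 the interval held 0. A link to the FOXA factors was not tested. LGALS4, VIL1, HNF4A and FOXQ1 were singled out after their values were seen. In HGC-27 the interval lay above 0 for 9.73% and below 0 for 10.8% of all tested genes with counts there. It lay above 0 for 3 of 14 family relatives and below 0 for 1. Of 5 gastric genes it lay above 0 for 1 and below 0 for none. Of 13 intestinal genes it lay below 0 for 1 and above 0 for none. It lay to neither side of 0 for the 16 other gut transcription factors and the 3 FOXA targets with counts.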

How the data were processed

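Raw gene counts were deposited by the authors for 4 libraries; the submitters' processing notes name HISAT2, an aligner, and featureCounts, a read counter. Versions, strandedness and treatment of multiply matching reads are not given in the sources used here. Those notes name hg18, but the coordinates and exonic lengths of all 8 factors equal GENCODE release 29 on GRCh38 and are printed as such. The number in a library name marks the cell line, so equal numbers pair libraries. Over tested genes, log2(CPM + 1) correlated at 0.997 within each line and at 0.777 to 0.781 between lines. Counts were fitted in R 4.3.3 with edgeR 4.0.16 (TMM, filterByExpr leaving 18278 genes, quasi-likelihood F-test, model of treatment plus line, Benjamini-Hochberg threshold 0.05). Each SE is the log2 change over the square root of its F. One residual degree of freedom per gene remained, with 396.9 prior degrees of freedom. The variance behind each edgeR p-value and SE was therefore almost wholly the prior shared across genes. It hardly reflects the spread of that gene between its own libraries. Within a line, ratios used a prior of 0.5 counts and exact conditional binomial intervals of 95%. Counting intervals and the floor of 3 counts cover counting error only, since no molecular identifiers are recorded. TPM used the file's gene length. Steps were checked on simulated data. The members and gene lists were chosen with earlier results of these data known. All 8 factors are named; of each list, the 3 highest and 3 lowest called line differences at a mean of at least 1 CPM, genes called with estradiol and the 2 nearest profiles of each factor; others were chosen after their values were seen. Some genes that this rule names are not reported here. Alternatives were other scalings and filters, DESeq2 1.42.0, a robust prior, other models and left-out libraries.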

Additional observations from a re-analysis of the deposited data

How the results depend on the processing

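The line differences kept their direction and their call for all 7 tested factors under all 11 alternatives, with a largest adjusted p of 0.000206 (DESeq2 for FOXA2). Without 1 library, where the lone library of a line is assumed to vary like the others, the log2 difference ranged from 2.19 to 2.96 for FOXA2 and from 9.86 to 12.90 for FOXA3; for the other 5 it stayed between 2.48 and 4.56. With estradiol, 0 factors were called under any alternative that gave a test. The count of all genes called with estradiol was 28. It was 11 with a filter of at least 1 CPM in 2 libraries, 17 with a robust prior, 13 with libraries scaled by total counts (added after seeing the data) and 1 with DESeq2. With no replicate block it was 0 (2 at an unadjusted p under 0.05). The cause was not tested. Below the threshold, the sign of the estradiol change turned for FOXA2 with DESeq2 (0.13) and for GATA4 with no replicate block (-0.0025). No test is possible within a line. The median of all genes moved by -0.14 with no filter in the line comparison, as more low genes entered. FOXA3, FOXA2 and CDX1 are limited by depth in HGC-27.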
